A study of Mus musculus with 17 samples.

Results

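The genes described here carry out or restrain programmed cell death through caspases: the death receptor Fas, the initiator caspases Casp8 and Casp9, the Casp9 scaffold Apaf1, the caspase Casp6, the inflammatory caspase Casp1, and the inhibitor of apoptosis (IAP) genes Birc2 and Xiap. These 8 genes were taken by name from the 18193 genes with at least 1 probe set that the platform annotation gives to a single gene, and each was read from whichever of its probe sets averaged highest across the 17 arrays. All 8 were among the 12696 genes kept by a filter on dim probe sets. Gene expression had been measured on Affymetrix mouse genome arrays, with 1 array a mouse, in whole blood of 8-week-old female C57BL/6JJcl mice taken 24 h after whole-animal X-irradiation at 1.0 Gy/min. The groups were 5 mice given 0 Gy, called controls, and 4 mice each given 0.5, 1.0 or 3.0 Gy. No transgene or other agent is named in the labels, and the blood had gone into an RNA-stabilising tube. All levels below are deposited log2 values, differences are differences of group means on that scale with limma's standard error (SE), and a gene was called when its p, adjusted over all 12696 genes, was under 0.05.

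Caspases are proteases kept as inactive precursors until a platform brings them together. The death receptor Fas recruits caspase-8 through an adaptor, while cytochrome c released from mitochondria makes Apaf1 assemble the apoptosome that activates caspase-9, and both routes converge on executioner caspases. Caspase-6 is usually grouped with the executioners, caspase-1 is activated in inflammasomes and matures interleukin-1β, Xiap binds and blocks caspases directly, and Birc2 (cIAP1) is a ubiquitin ligase that steers death receptor complexes towards survival signalling. Lymphocytes are the blood cells best known for dying soon after irradiation, and Fas, Apaf1 and Casp6 have been described as p53 targets.

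Birc2 was called higher at every dose and Xiap likewise, Casp6 rose at 3.0 Gy, and Casp8, Apaf1 and Casp1 fell at 3.0 Gy, while Fas and Casp9 were not called at any dose against controls. The calls of Xiap at 0.5 and 3.0 Gy and of Apaf1 and Casp1 at 3.0 Gy were lost under several alternatives, given below. Of the 8 genes, 2 were called at 0.5 Gy, both higher, beside 10.2% of all genes tested, of which 5.24% were higher. At 1.0 Gy 2 were called, again both higher, beside 17.3% of all genes (8.80% higher). At 3.0 Gy 6 were called, 3 higher and 3 lower, beside 49.1% of all genes (20.0% higher and 29.2% lower). Without 3.0 Gy replicate 2, described below, 3 were higher and 2 lower at that dose, and without 3.0 Gy replicate 3 or without replicate 4, 2 were higher and 1 lower. With the 18S level, also described below, in the fit, 0 of the 8 were called by limma at 0.5 or 1.0 Gy and 6 at 3.0 Gy. That fit cannot separate dose from 18S level at 0.5 and 1.0 Gy, where the 18S level did not overlap that of controls. The median size of the difference from controls, without regard to sign, was 0.30, 0.38 and 0.61 for the 8 genes at 0.5, 1.0 and 3.0 Gy, against 0.14, 0.17 and 0.32 for all genes tested. Since nearly every second gene moved at 3.0 Gy, the called share is a description and nothing particular to these genes is read from it.

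**Figure D1:**
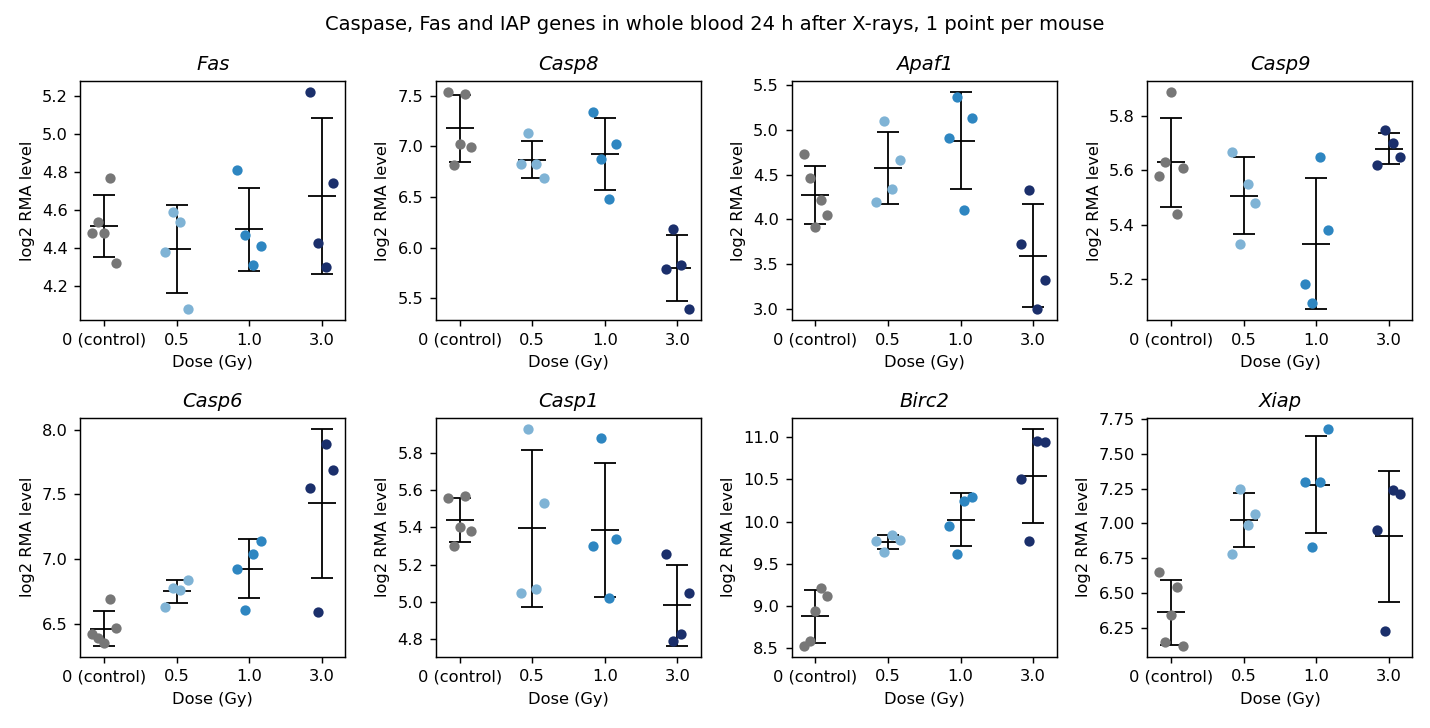
Deposited log2 level (vertical axis) of each of the 8 genes in every mouse, by dose from control to 3.0 Gy; points are arrays and bars are group mean ± SD. Birc2 lies above every control at each dose, Casp8 at 3.0 Gy lies below every control, and 3.0 Gy replicate 2 departs from its group for several genes.

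Several features of the arrays moved with dose. Of 14 platelet and megakaryocyte markers tested, 14 rose at each dose, and their mean level was 8.70 to 9.22 in controls, 10.18 to 10.43 after 0.5 Gy, 10.55 to 10.92 after 1.0 Gy and 10.41 to 11.14 after 3.0 Gy (exact permutation p = 0.0159 for each dose against controls, the smallest that 4 arrays against 5 allow). At 3.0 Gy 10 of 11 B cell markers and 8 of 11 T cell markers fell, with mean levels of 4.96 to 6.28 at 3.0 Gy against 7.60 to 8.33 in controls for B cells, and 5.73 to 5.96 at 3.0 Gy against 6.72 to 7.21 in controls for T cells. Also at 3.0 Gy, 7 of 9 neutrophil markers rose, 5 of 8 red cell markers fell and 2 rose, 4 of 8 monocyte markers fell and 1 rose, and 2 of 8 NK cell markers fell. Between 8 and 14 markers of each of these cell types passed the filter, and the other listed markers were not analysed here. The 3 control probe sets for 18S ribosomal RNA averaged 10.52 ± 0.49 in controls, 12.69 ± 0.77 after 0.5 Gy, 13.28 ± 0.28 after 1.0 Gy and 10.68 ± 0.14 after 3.0 Gy (SD; exact permutation p = 0.0159, 0.0159 and 0.603 against controls in dose order). Arrays ranged from 11.76 to 13.43 at 0.5 Gy and 12.89 to 13.52 at 1.0 Gy, against 9.82 to 11.18 in controls and 10.50 to 10.84 at 3.0 Gy. Comparisons of 0.5 or 1.0 Gy with controls or 3.0 Gy therefore cannot separate dose from 18S level. A call lost with 18S in the fit does not tell them apart. The array of 3.0 Gy replicate 2 stood apart from its group, with a median correlation of 0.961 to the other arrays of the group against 0.978 to 0.982 for those arrays, and with the highest B cell level (6.28) and the lowest platelet level (10.41) of the group. To a lesser degree so did 1.0 Gy replicate 3, with a median correlation of 0.966 against 0.977 to 0.983 for the other arrays at 1.0 Gy. At 0.5 Gy replicate 2 had a median correlation of 0.978 against 0.986 to 0.989 for the others. Its neutrophil marker level was 8.45 against 7.15 to 7.34, and it had the group's highest Casp1 (5.93) and Apaf1 (5.10). In whole blood, fewer cells of a type and less RNA per cell cannot be told apart.

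Promoter windows of 300 bases, mostly upstream of a gene's start and ending 50 bases after it (RefSeq, build GRCm38.p6), were found for all 8 genes, 11 windows in total. Those of Birc2, with the largest rise, Casp8, with the largest fall, and Fas, the receptor that was not called, are shown 5′ to 3′ on the gene's own strand, with matches to the searched motifs in capitals. The Birc2 window, chr9:7837008-7837307 on the minus strand, is the second of its 2 overlapping windows and has 67% G and C. The Casp8 window, chr1:58802252-58802551 on the plus strand, has 42%. The Fas window, chr19:34290409-34290708 on the plus strand, has 59%.
Birc2: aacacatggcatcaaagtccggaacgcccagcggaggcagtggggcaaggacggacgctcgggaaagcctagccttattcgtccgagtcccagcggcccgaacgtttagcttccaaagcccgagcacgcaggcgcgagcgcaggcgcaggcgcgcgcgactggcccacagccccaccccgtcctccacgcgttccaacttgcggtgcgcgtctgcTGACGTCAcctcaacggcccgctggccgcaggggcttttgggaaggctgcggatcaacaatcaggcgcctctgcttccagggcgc
Casp8: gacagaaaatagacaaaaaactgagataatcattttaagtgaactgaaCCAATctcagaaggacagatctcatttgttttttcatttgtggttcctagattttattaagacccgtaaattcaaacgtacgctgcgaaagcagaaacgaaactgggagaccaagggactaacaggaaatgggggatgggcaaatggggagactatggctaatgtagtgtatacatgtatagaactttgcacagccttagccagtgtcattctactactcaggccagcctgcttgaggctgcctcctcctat
Fas: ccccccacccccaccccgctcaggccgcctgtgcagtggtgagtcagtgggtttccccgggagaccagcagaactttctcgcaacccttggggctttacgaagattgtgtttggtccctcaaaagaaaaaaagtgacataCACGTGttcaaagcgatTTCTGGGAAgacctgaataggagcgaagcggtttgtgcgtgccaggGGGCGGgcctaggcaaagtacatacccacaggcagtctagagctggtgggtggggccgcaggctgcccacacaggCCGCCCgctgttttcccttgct
The capitals in the Birc2 window are a cAMP response element, TGACGTCA, starting 35 bases before the gene's start, which 1.79% of 32851 mouse promoter windows hold. Casp8 has only a CCAAT box, CCAAT, held by 37.4% of windows. Fas has an E-box, CACGTG (7.15% of windows), a GAS-type match to TTCNNNGAA (8.3%) and 2 GC boxes, GGGCGG or its reverse complement (35.7%). Both strands were also searched for the ISRE-type GAAA, any 2 bases, GAAA (3.44%), the ETS-type CCGGAAG (8.86%), the NF-kB motif (8.46%) and the decamer of p53 (8.36%). These have no match in the 3 printed windows. The other Birc2 window, not printed, has an ETS-type match, a p53 decamer, 2 GC boxes and 1 CCAAT box. A match describes letters in the window and is not a measured site.

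The receptor Fas (probe set 1460251_at) gave no called difference in the fit of the 4 group means. Its levels were 4.48, 4.54, 4.48, 4.77 and 4.32 in controls, 4.38, 4.59, 4.54 and 4.08 after 0.5 Gy, 4.81, 4.47, 4.31 and 4.41 after 1.0 Gy, and 5.22, 4.43, 4.30 and 4.74 after 3.0 Gy. The ranges of all 4 groups overlapped, and 3.0 Gy replicate 1 was the highest array. The difference from controls was -0.12 ± 0.17 at 0.5 Gy (adjusted p = 0.756), -0.02 ± 0.17 at 1.0 Gy (adjusted p = 0.952) and 0.15 ± 0.17 at 3.0 Gy (adjusted p = 0.452). The level at 3.0 Gy lay 0.27 ± 0.17 above that at 0.5 Gy (adjusted p = 0.232), and with array weights this difference was called (0.47, adjusted p = 0.0259). The 95% interval of the 3.0 Gy difference from controls ran from -0.19 to 0.50, which leaves room for a rise of up to 0.50 with this number of mice. Fas was dim: its probe set exceeded its array's 75th percentile on 1 of 17 arrays, and RMA understates differences of dim probe sets.

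Casp8, the initiator caspase recruited by death receptors (probe set 1424552_at), showed the largest fall. Its levels were 7.54, 6.82, 7.02, 7.52 and 6.99 in controls, 6.83, 7.13, 6.83 and 6.69 after 0.5 Gy, 7.34, 6.88, 6.48 and 7.02 after 1.0 Gy, and 5.79, 6.18, 5.83 and 5.39 after 3.0 Gy. All 4 arrays at 3.0 Gy lay below every array of the other groups, and the other groups overlapped one another. Casp8 fell by 1.38 ± 0.19 at 3.0 Gy against controls (adjusted p = 6.67e-06), a level 2.61-fold lower. It also fell at 3.0 Gy against 0.5 Gy (-1.07 ± 0.20, adjusted p = 0.000468) and against 1.0 Gy (-1.13 ± 0.20, adjusted p = 0.00032). At 0.5 and 1.0 Gy the differences from controls were -0.31 ± 0.19 and -0.25 ± 0.19 (adjusted p = 0.369 and 0.42), with 95% intervals of -0.70 to 0.08 and -0.64 to 0.14. The fall at 3.0 Gy lay beside the fall of the B and T cell markers, and their part in it was not tested. With the 18S level in the fit, the fall against controls was -1.39 (adjusted p = 1.13e-05), while the differences from 0.5 Gy (-0.97, adjusted p = 0.214) and 1.0 Gy (-1.01, adjusted p = 0.416) were of similar size without being called.

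Apaf1, the scaffold of the apoptosome (probe set 1452870_at), was low at 3.0 Gy. Its levels were 4.73, 4.46, 3.92, 4.22 and 4.05 in controls, 4.20, 5.10, 4.34 and 4.66 after 0.5 Gy, 4.91, 5.36, 4.11 and 5.13 after 1.0 Gy, and 3.73, 4.33, 3.00 and 3.33 after 3.0 Gy. Here 3 of the 4 arrays at 3.0 Gy lay below every control, and the highest of the 4, replicate 2, lay within the controls' range. Apaf1 was dim: its probe set exceeded its array's median on 15 of 17 arrays and its array's 75th percentile on 4. At 3.0 Gy the levels of 3.00 and 3.33 lay below the lowest array median, 3.47. The size of the fall is therefore uncertain, since RMA compresses dim probe sets. Apaf1 fell by 0.68 ± 0.27 at 3.0 Gy against controls (adjusted p = 0.0428, 95% interval -1.24 to -0.12). The gap to 1.0 Gy was wider, at -1.28 ± 0.28 (adjusted p = 0.00204), and that to 0.5 Gy was -0.98 ± 0.28 (adjusted p = 0.012). Against controls Apaf1 differed by 0.30 ± 0.27 at 0.5 Gy and 0.60 ± 0.27 at 1.0 Gy (adjusted p = 0.586 and 0.144), so the 1.0 Gy group had the highest mean, 4.88 ± 0.55, without passing the test. It was called at 1.0 Gy without 1.0 Gy replicate 3 (0.86, adjusted p = 0.0267) and with array weights (0.87, adjusted p = 0.00651). A second Apaf1 probe set (1450223_at) did not follow this pattern, at 3.34 ± 0.23 in controls, 3.69 ± 0.24 after 0.5 Gy, 3.52 ± 0.07 after 1.0 Gy and 3.48 ± 0.20 after 3.0 Gy (SD). The 3.0 Gy call against controls was lost when the probe sets were averaged (-0.27, adjusted p = 0.189) and without any 1 of 8 arrays, namely control replicates 1, 2 and 4, 0.5 Gy replicate 4, 1.0 Gy replicate 1 and 3.0 Gy replicates 1, 3 and 4 (-0.72 to -0.48, adjusted p = 0.0502 to 0.162). The call against 0.5 Gy was lost without 0.5 Gy replicate 2 (adjusted p = 0.053) or 3.0 Gy replicate 3 (adjusted p = 0.0516). When the 18S level was a covariate, neither the difference from 0.5 Gy (-0.60, adjusted p = 0.646) nor that from 1.0 Gy (-0.78, adjusted p = 0.674) was called.

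Casp9, which the apoptosome activates, gave no called difference from controls in the probe set used (1426125_a_at). Its levels were 5.58, 5.63, 5.89, 5.44 and 5.61 in controls, 5.67, 5.33, 5.55 and 5.48 after 0.5 Gy, 5.18, 5.11, 5.65 and 5.38 after 1.0 Gy, and 5.62, 5.75, 5.70 and 5.65 after 3.0 Gy. Each irradiated group overlapped the controls, and the 3.0 Gy arrays lay closest together. Against controls the differences were -0.12 ± 0.12, -0.30 ± 0.12 and 0.05 ± 0.12 at 0.5, 1.0 and 3.0 Gy (adjusted p = 0.637, 0.0961 and 0.741). The 1.0 Gy difference was called without 1.0 Gy replicate 3 (-0.41, adjusted p = 0.0199) and with array weights (-0.41, adjusted p = 0.0112). Casp9 was called 0.35 ± 0.13 higher at 3.0 Gy than at 1.0 Gy (adjusted p = 0.0353), and this call was lost without 1.0 Gy replicate 1, 2 or 4 or without any 1 array at 3.0 Gy (0.28 to 0.37, adjusted p = 0.0504 to 0.119). It was also lost with the most variable probe set (0.02, adjusted p = 0.905), with the 18S level in the fit (0.18, adjusted p = 0.854), with the probe set of 1 transcript target (0.25, adjusted p = 0.0666), with arrays centred on their medians (adjusted p = 0.0548) and with only the groups compared (adjusted p = 0.0656). A second Casp9 probe set (1457816_at) stood at 5.37 ± 0.12 in controls, 5.50 ± 0.12 after 0.5 Gy, 5.40 ± 0.11 after 1.0 Gy and 5.66 ± 0.12 after 3.0 Gy (SD). Read from that probe set, which is of the type designed against 1 transcript target, Casp9 was called higher at 3.0 Gy than in controls (0.29, adjusted p = 0.0239), so the probe sets of Casp9 disagree on its call. The remaining Casp9 probe set differed from controls by -0.07, 0.06 and 0.08 at 0.5, 1.0 and 3.0 Gy.

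Casp6, which cleaves lamins and other structural proteins (probe set 1415995_at), rose at 3.0 Gy. Its levels were 6.42, 6.39, 6.35, 6.69 and 6.47 in controls, 6.63, 6.78, 6.76 and 6.84 after 0.5 Gy, 6.92, 6.61, 7.04 and 7.14 after 1.0 Gy, and 7.55, 6.59, 7.89 and 7.69 after 3.0 Gy. At 3.0 Gy 3 of 4 arrays lay above every other array of the study, while replicate 2 lay within the controls' range. Casp6 rose by 0.97 ± 0.19 at 3.0 Gy against controls (adjusted p = 0.000305), a level 1.95-fold higher, and without replicate 2 the difference was 1.24 (adjusted p = 2.11e-07). At 0.5 and 1.0 Gy the differences from controls were 0.29 ± 0.19 and 0.46 ± 0.19 (adjusted p = 0.41 and 0.104). The 3.0 Gy level was 0.68 ± 0.20 above that at 0.5 Gy (adjusted p = 0.0132), a call lost without 3.0 Gy replicate 3 (0.52, adjusted p = 0.0576) or with the 18S level in the fit (0.75, adjusted p = 0.35). Against 1.0 Gy the difference was 0.50 ± 0.20 (adjusted p = 0.0515), and without 3.0 Gy replicate 2 it was called (0.78, adjusted p = 0.000211), as was the 1.0 Gy difference from controls (0.46, adjusted p = 0.00814). The difference from 1.0 Gy was also called under 6 other settings (0.29 to 0.69, adjusted p = 0.00589 to 0.0496), and the 1.0 Gy difference from controls under 2 (0.46 to 0.52, adjusted p = 0.0158 to 0.0293). A second Casp6 probe set was too dim to be kept.

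Casp1, the inflammasome protease (probe set 1449265_at), fell slightly at 3.0 Gy. Its levels were 5.56, 5.30, 5.40, 5.57 and 5.38 in controls, 5.05, 5.93, 5.07 and 5.53 after 0.5 Gy, 5.30, 5.88, 5.02 and 5.34 after 1.0 Gy, and 5.26, 4.79, 4.83 and 5.05 after 3.0 Gy. The 3.0 Gy arrays lay just below every control, and the 0.5 and 1.0 Gy arrays spread on both sides of the controls. Casp1 fell by 0.46 ± 0.18 at 3.0 Gy against controls (adjusted p = 0.0408, 95% interval -0.84 to -0.08). At 0.5 and 1.0 Gy the differences were -0.05 ± 0.18 and -0.06 ± 0.18 (adjusted p = 0.933 and 0.876). The 3.0 Gy call was lost without any 1 of control replicates 1, 3 and 4 and 3.0 Gy replicates 2, 3 and 4 (-0.48 to -0.40, adjusted p = 0.055 to 0.104), and after repeated quantile normalization (adjusted p = 0.095) or with array weights (adjusted p = 0.088). At 3.0 Gy Casp1 was not called against 0.5 Gy (-0.41 ± 0.19, adjusted p = 0.0982) or 1.0 Gy (-0.40 ± 0.19, adjusted p = 0.0963), but was without 0.5 Gy replicate 1 (-0.53, adjusted p = 0.0475) and without 1.0 Gy replicate 3 (-0.52, adjusted p = 0.0369).

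Birc2, the cIAP1 ubiquitin ligase (probe set 1418854_at), rose at every dose. Its levels were 8.53, 8.59, 8.94, 9.22 and 9.12 in controls, 9.77, 9.64, 9.84 and 9.78 after 0.5 Gy, 9.95, 9.62, 10.24 and 10.29 after 1.0 Gy, and 10.51, 9.77, 10.96 and 10.94 after 3.0 Gy. Every irradiated array lay above every control, and 3.0 Gy replicate 2 lay among the lower doses. Birc2 rose by 0.88 ± 0.21 at 0.5 Gy (adjusted p = 0.0107), by 1.14 ± 0.21 at 1.0 Gy (adjusted p = 0.000615) and by 1.67 ± 0.21 at 3.0 Gy (adjusted p = 3.02e-06). These are levels 1.84, 2.21 and 3.18-fold higher than in controls. The 3.0 Gy level was 0.79 ± 0.22 above that at 0.5 Gy (adjusted p = 0.0105) and 0.52 ± 0.22 above that at 1.0 Gy (adjusted p = 0.0688), which was called without 3.0 Gy replicate 2 (0.78, adjusted p = 0.00284), after repeated quantile normalization (adjusted p = 0.0149) and with array weights (adjusted p = 0.0134). The platelet markers rose at the same doses as Birc2, and their part in its rise was not tested. With the 18S level in the fit, Birc2 at 3.0 Gy was 1.66 above controls (adjusted p = 5.83e-06), while the calls at 0.5 Gy (0.74, adjusted p = 0.476) and 1.0 Gy (0.96, adjusted p = 0.433) and the call of 3.0 against 0.5 Gy (0.92, adjusted p = 0.298) were lost.

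Xiap, the direct caspase inhibitor (probe set 1437533_at), had its highest mean at 1.0 Gy. Its levels were 6.65, 6.15, 6.34, 6.54 and 6.12 in controls, 6.78, 7.25, 6.99 and 7.07 after 0.5 Gy, 7.30, 6.83, 7.30 and 7.68 after 1.0 Gy, and 6.95, 6.23, 7.24 and 7.21 after 3.0 Gy. All arrays at 0.5 and 1.0 Gy lay above every control, and at 3.0 Gy replicate 2 lay within the controls' range. Xiap rose by 0.66 ± 0.20 at 0.5 Gy (adjusted p = 0.0353), by 0.92 ± 0.20 at 1.0 Gy (adjusted p = 0.00224) and by 0.55 ± 0.20 at 3.0 Gy (adjusted p = 0.0266). The 3.0 Gy group was not called against 0.5 Gy (-0.11 ± 0.21, adjusted p = 0.685) or 1.0 Gy (-0.37 ± 0.21, adjusted p = 0.156). Without 3.0 Gy replicate 2 the rise at that dose was 0.78 (adjusted p = 0.00092). The 0.5 Gy call was lost on dropping any 1 of control replicates 2, 3 and 5 and 0.5 Gy replicates 2, 3 and 4 (0.59 to 0.67, adjusted p = 0.0644 to 0.0901), and the 3.0 Gy call on dropping any 1 of control replicates 2 and 5 and 3.0 Gy replicates 1, 3 and 4 (0.44 to 0.53, adjusted p = 0.0563 to 0.0975). With the 18S level in the fit the calls at 0.5 Gy (0.48, adjusted p = 0.659) and 1.0 Gy (0.68, adjusted p = 0.599) were lost and that at 3.0 Gy held (0.53, adjusted p = 0.0353). With arrays centred on their medians, Xiap was not called at 0.5 Gy (0.66, adjusted p = 0.0529) or 3.0 Gy (0.50, adjusted p = 0.0521). A second Xiap probe set that passed the filter differed from controls by 0.03, 0.11 and 0.41 at 0.5, 1.0 and 3.0 Gy, and 5 further probe sets of the gene were too dim to be kept. That second probe set was highest at 3.0 Gy (mean 5.18 against 4.77 in controls). The 2 probe sets thus differ at the lower doses and in the dose with the highest mean.

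**Figure D2:**
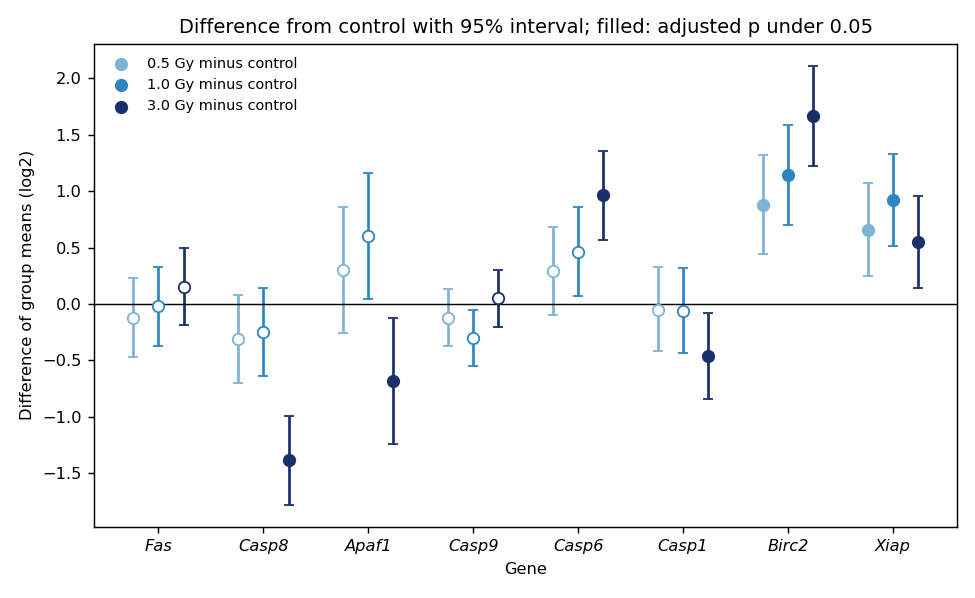
Difference of group means from controls on the log2 scale (vertical axis) for each of the 8 genes at 0.5, 1.0 and 3.0 Gy, with limma's unadjusted 95% interval; filled points passed the adjusted threshold. Intervals of Birc2 and Xiap exclude 0 at each dose, and at 3.0 Gy Birc2, Casp6 and Xiap lie above 0 and Casp8, Apaf1 and Casp1 below it.

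Ranges that did not overlap gave a similar picture. At 0.5 Gy 2 of the 8 genes (Birc2 and Xiap) had all arrays above all controls and 0 had all below, beside 6.66% and 4.54% of all genes. At 1.0 Gy the same pair lay above and 0 below, beside 7.88% and 6.38% of all genes. At 3.0 Gy Birc2 alone lay wholly above and Casp8 and Casp1 wholly below, beside 14.2% and 22.9% of all genes.

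The doses also differed among themselves. Between 1.0 and 0.5 Gy, 0 of the 8 genes were called by limma, and 0 had an unadjusted p under 0.05, beside 0.0158% of all genes called. At 3.0 Gy against 0.5 Gy 4 were called (Birc2 and Casp6 higher, Casp8 and Apaf1 lower), beside 33.8% of all genes. At 3.0 Gy against 1.0 Gy 3 were called (Casp9 higher, Casp8 and Apaf1 lower), beside 38.6% of all genes. In an F test over the doses 5 of the 8 genes passed (Birc2, Casp8, Casp6, Xiap and Apaf1), beside 48.2% of all genes. When the 18S level was a covariate, Xiap (adjusted p = 0.169) and Apaf1 (adjusted p = 0.167) no longer passed it. Casp9 passed it without 1.0 Gy replicate 3 (adjusted p = 0.0162), after repeated quantile normalization (adjusted p = 0.0265) and with array weights (adjusted p = 0.0197). A slope on dose was called for 5, beside 47.4% of all genes. The slope per Gy was 0.49 ± 0.09 for Birc2 and 0.31 ± 0.06 for Casp6, and -0.45 ± 0.06 for Casp8, -0.28 ± 0.11 for Apaf1 and -0.16 ± 0.06 for Casp1. A called slope is not a steady course. From controls to 3.0 Gy the means were 7.18, 6.87, 6.93 and 5.80 for Casp8 and 4.28, 4.58, 4.88 and 3.60 for Apaf1. Those of Casp1 were 5.44, 5.40, 5.39 and 4.98. For Xiap the slope was 0.12 ± 0.09 (adjusted p = 0.278), with the highest mean at 1.0 Gy in the probe set used, and the slope was called without 3.0 Gy replicate 2 (0.22, adjusted p = 0.045) and when 18S was a covariate (0.17, adjusted p = 0.0377). The slopes of Apaf1 and Casp1 depended on single arrays: that of Apaf1 was lost without 1 of 6 arrays (control replicate 1, 0.5 Gy replicates 2 and 4, 3.0 Gy replicates 1, 3 and 4, adjusted p = 0.0503 to 0.185) and with the mean over probe sets (-0.13, adjusted p = 0.103). The slope of Casp1 was lost without 3.0 Gy replicate 2 or 3 (adjusted p = 0.0887 and 0.0894), after repeated quantile normalization (adjusted p = 0.074) and with array weights (adjusted p = 0.0528). The slope of Casp9, 0.03 ± 0.04, was called with the probe set of 1 transcript target (0.09, adjusted p = 0.0294).

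**Figure D3:**
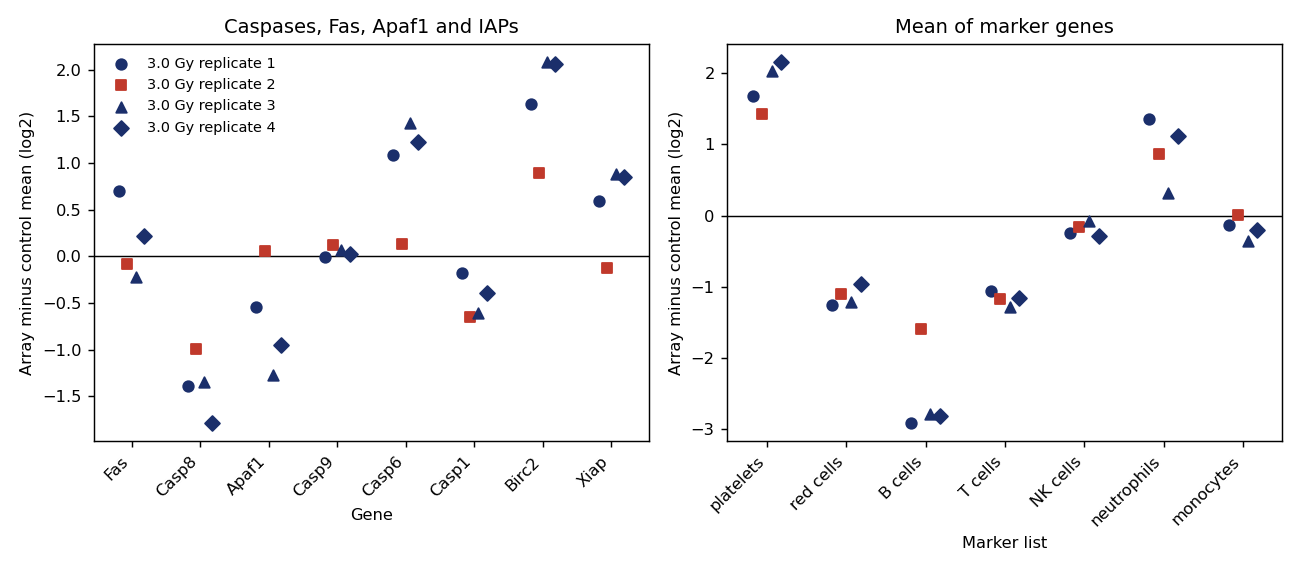
The 4 arrays at 3.0 Gy shown singly as the log2 difference from the control mean (vertical axes), for each of the 8 genes on the left and for the mean of each marker list on the right. Replicate 2 is the lowest of its group for Birc2, Casp6, Xiap and Casp1 and the highest for Casp8, Apaf1, Casp9 and the B cell markers.

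Across the 17 arrays some of the 8 genes varied together. As a description, since arrays share dose, cell makeup and normalization, Birc2 and Casp6 had a Pearson r of 0.92 over all arrays and 0.88 for deviations from group means, and Casp6 and Xiap 0.66 and 0.86. Apaf1 and Birc2 ran against each other within groups (-0.76), as did Casp1 and Casp9 (-0.74). The array of 3.0 Gy replicate 2 lay away from its group mean for Casp6 (6.59 against 7.43) and Birc2 (9.77 against 10.55). So it did for Xiap (6.23 against 6.91) and Apaf1 (4.33 against 3.60). The correlations were not run without that array, so its share in them is not known. The genes most like Birc2 over the arrays were Pla2g12a, Yaf2 and 4930486L24Rik (r = 0.99 each), and those most like Casp6 were Chmp5, Fbxl17 and Erlec1 (0.97 each). Casp8 was closest to Mcm7, Adsl and Gimap1 (0.98 each). Xiap was closest to Mtpn and Ankib1 (0.96 each) and Erbin (0.95), and Apaf1 to Zfyve26 (0.96), Cybb and Api5 (0.95 each). For Casp9 the closest were Carmil2 (0.95), 1700049J03Rik (0.93) and 1110051M20Rik (0.90), and for Casp1 Chst15 and Stxbp3 (0.88 each) and Cwf19l2 (0.87). Fas had the weakest likeness, to Tctex1d2 (0.79), Mefv (0.77) and Glrx (0.76).

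Other genes of the death pathway put these changes in context, with the values below from the same limma fit of 3.0 Gy against controls. Each count at 3.0 Gy below stands beside 49.1% of all genes called at that dose, 20.0% higher and 29.2% lower. The counts are a description, and nothing particular to a list is read from them. Of 3 other caspases tested, Casp4, an inflammatory caspase that senses lipopolysaccharide, rose (0.47 ± 0.13, adjusted p = 0.00546) and Casp2, an initiator linked to DNA damage, fell (-1.18 ± 0.17, adjusted p = 1.2e-05), while Casp14 was not called (0.07 ± 0.11, adjusted p = 0.612). Neither Casp4 nor Casp2 was called at 0.5 or 1.0 Gy. Of 9 death receptors and ligands tested, Tnfrsf21 (death receptor 6; 0.86 ± 0.12, adjusted p = 8.43e-06) and the cytokine Tnf (0.36 ± 0.13, adjusted p = 0.0266) rose and 0 fell. Tnfrsf21 was also called at 0.5 and 1.0 Gy. The Fas ligand gene Fasl (0.21 ± 0.22, adjusted p = 0.44) and the adaptor gene Fadd (0.17 ± 0.13, adjusted p = 0.305) were not called.

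Among 12 adaptors and brakes of death receptors, 2 rose and 8 fell at 3.0 Gy, with a median difference of -0.59 against 0.04 over all genes. Cflar, which encodes the caspase-8 brake c-FLIP, rose at 0.5 Gy (0.72 ± 0.17, adjusted p = 0.01), 1.0 Gy (0.94 ± 0.17, adjusted p = 0.000552) and 3.0 Gy (0.53 ± 0.17, adjusted p = 0.0147), and Dedd rose at 3.0 Gy (0.94 ± 0.16, adjusted p = 6.27e-05). The genes that fell at 3.0 Gy include the ubiquitin editor Tnfaip3 (mean level 5.03 at 3.0 Gy against 6.03 in controls, adjusted p = 3.02e-06), the Fas inhibitor Faim (-1.16 ± 0.18, adjusted p = 2.63e-05), the necroptosis kinase Ripk3 (-0.63 ± 0.17, adjusted p = 0.00516) and Fcmr (-3.64 ± 0.30, adjusted p = 3.54e-08), which is also one of the B cell markers. The B cell markers fell at the same dose, and their part in these falls was not tested.

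Among 9 other IAPs and IAP antagonists, 1 rose and 3 fell at 3.0 Gy. Birc3 (cIAP2), the closest relative of Birc2, fell by 1.87 ± 0.19 (adjusted p = 2.02e-07), with a mean level of 6.26 at 3.0 Gy against 8.14 in controls, opposite in sign to Birc2. The IAP antagonists Htra2 (-0.91 ± 0.13, adjusted p = 8.39e-06) and Diablo (-0.62 ± 0.12, adjusted p = 0.000192) also fell, and both were called lower at 1.0 Gy, Htra2 also at 0.5 Gy. The IAP gene Birc7 rose (0.47 ± 0.14, adjusted p = 0.0087). Xaf1, also on this list, passed the F test over the doses. It was called higher at 1.0 Gy and was not called at 0.5 or 3.0 Gy.

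On the mitochondrial route, 9 partners of cytochrome c release were tested, of which 2 rose and 1 fell at 3.0 Gy. Bid, which caspase-8 cleaves to link the receptor route to mitochondria, rose at 0.5 Gy (0.72 ± 0.18, adjusted p = 0.0152), 1.0 Gy (0.87 ± 0.18, adjusted p = 0.00208) and 3.0 Gy (1.31 ± 0.18, adjusted p = 9.84e-06). Bbc3 (PUMA), a p53 target, rose at 3.0 Gy (0.37 ± 0.13, adjusted p = 0.0246) and 1.0 Gy (0.45 ± 0.13, adjusted p = 0.0206). Cycs, cytochrome c itself, fell at 3.0 Gy (-1.07 ± 0.14, adjusted p = 5.74e-06). Hspa9 and Hspd1 passed the F test over the doses but were not called at 3.0 Gy against controls. Hspd1 was called higher at 1.0 Gy.

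Of 8 inflammasome and pyroptosis genes, 5 rose and 2 fell at 3.0 Gy, around the slight fall of Casp1. The channel gene Panx1, whose product is opened by caspase cleavage, rose by 1.33 ± 0.12 (adjusted p = 1.1e-07) and was called higher at 0.5 and 1.0 Gy as well. Il1b, which caspase-1 matures, rose (0.94 ± 0.28, adjusted p = 0.0102), as did the sensor Nlrp3 (0.59 ± 0.12, adjusted p = 0.00066), the sensor Mefv (0.59 ± 0.20, adjusted p = 0.0181) and the interleukin-1 receptor antagonist gene Il1rn (0.41 ± 0.16, adjusted p = 0.037). The adaptor Pycard (-0.73 ± 0.25, adjusted p = 0.0206) and the pore gene Gsdmd (-0.36 ± 0.13, adjusted p = 0.0249) fell. Neutrophil markers rose at this dose, and their part in these changes was not tested. Of 9 caspase substrates tested, 3 rose and 3 fell at 3.0 Gy, with Gsn (1.45 ± 0.16, adjusted p = 6.34e-07), Rock1 (1.14 ± 0.22, adjusted p = 0.000286) and the Casp6 substrate Lmna (0.71 ± 0.13, adjusted p = 0.000149) higher and Acin1 (-0.86 ± 0.17, adjusted p = 0.000362), Vim (-0.79 ± 0.29, adjusted p = 0.0294) and Parp1 (-0.53 ± 0.15, adjusted p = 0.00567) lower.

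**Figure D4:**
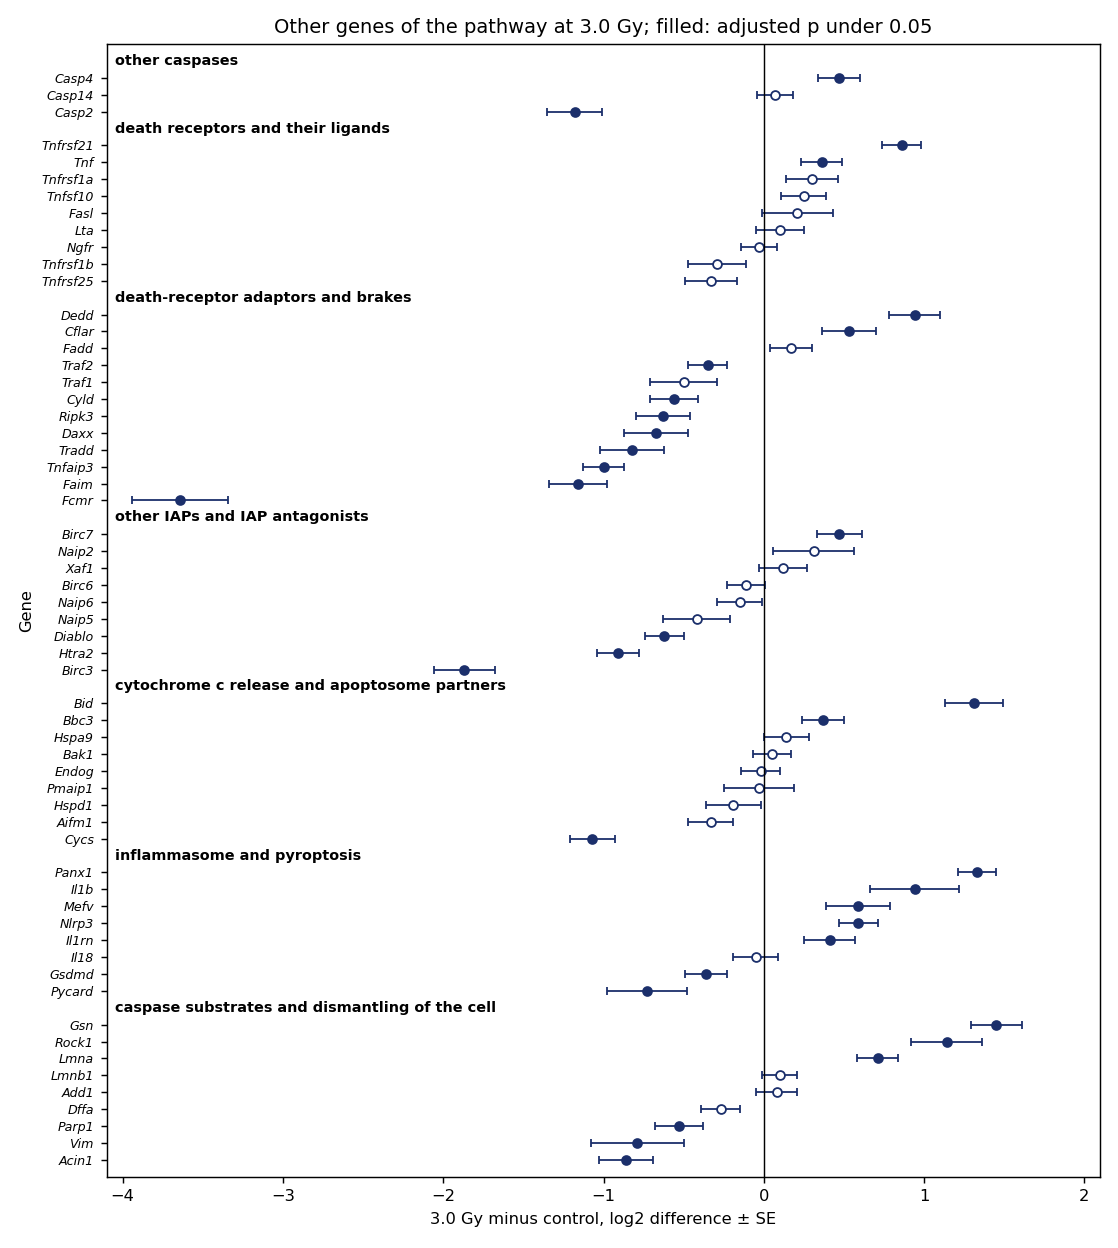
Log2 difference of 3.0 Gy from controls (horizontal axis, ± SE) for the other tested genes of the death pathway, by list; filled points passed the adjusted threshold. Adaptors and brakes lie mostly left of 0, and Birc3 lies left of 0 while Bid, Panx1, Gsn and Rock1 lie right of it.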

How the data were processed

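The deposited values, from 17 arrays with 45101 probe sets each, are on a log2 scale, and the authors made them with RMA and R 3.3.2, per the submitters' processing notes. Further settings were not given in the sources used here. The method evens out the distributions of arrays, which can hide a shift shared by many genes, and it compresses dim probe sets. The deposited distributions were not fully alike, with array medians of 3.47 to 3.57. Repeating quantile normalization changed some differences from controls at 3.0 Gy, among them those of Xiap and Casp9. Probe sets with 1 symbol (34945) were named from the platform annotation; 932 with several symbols were not used. A gene was kept when its probe set exceeded its array's 50th percentile on at least 4 arrays. The values were tested with limma 3.58.1 in R 4.3.3 (lmFit, eBayes, 4 group means over 17 arrays, two-sided, Benjamini-Hochberg over 12696 genes, tested first on simulated data), and single values with exact permutation tests over 126 regroupings (smallest p 0.0159). The labels call the samples biological replicates, and the number of arrays limits the precision. Promoter windows came from RefSeq (GRCm38.p6). The 8 genes and all gene lists were chosen with earlier results of these data known, so no p adjusted over a list is given. Named genes were the 8, up to 4 per pathway list by F-test p, all other genes called at 3.0 Gy where 5 or fewer moved in a direction, and for each of the 8 the 3 genes with the highest Pearson r. Fasl, Fadd, Casp14, Ripk3, Xaf1, Hspa9 and Hspd1 were added after their values were seen. Alternatives changed the filter, the probe set, the normalization, the covariates, the spread estimate and the arrays in the fit.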

Additional observations from a re-analysis of the deposited data

How the results depend on the processing

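Against controls, Casp6, Casp8 and Birc2 at 3.0 Gy kept direction and call under every alternative run for them, at 0.50 to 1.24, -1.51 to -1.18 and 1.53 to 1.93. Calls of the other genes and comparisons that changed are given in the report, and the cause was not tested. With the 18S level in the fit, the genes called fell in number to 557 at 0.5 Gy (1300 otherwise), 606 at 1.0 Gy (2195 otherwise), 95 for 3.0 against 0.5 Gy (4292 otherwise) and 0 by limma for 3.0 against 1.0 Gy (4904 otherwise, 6293 at an unadjusted p under 0.05). The groups of these comparisons did not overlap in 18S level, so the fit cannot separate dose from 18S level in them. Array weights gave 2437 genes at 0.5 Gy. Leaving out 1 array gave 765 (without 0.5 Gy replicate 3) to 1622 (without control replicate 2) genes at 0.5 Gy. For 1.0 against 0.5 Gy, where limma called 2 genes and 735 had an unadjusted p under 0.05, the count was 1 with the mean over probe sets, 5 with probe sets of one transcript target, 8 with the most variable probe set, 25 after repeated quantile normalization, 0 with the 18S level, 0 with a trended robust prior, 199 with array weights, 9 with only the groups compared, and 0 to 42 (without 1.0 Gy replicate 3) when 1 array was left out. Values that changed sign, none of them called, were, with the 18S level, Casp1 at 3.0 against 0.5 Gy (0.18) and 1.0 Gy (0.37), Casp9 (0.02), Apaf1 (-0.11) and Fas (0.15) at 0.5 Gy, Fas at 1.0 Gy (0.32) and at 3.0 against 1.0 Gy (-0.15), and Xiap at 3.0 against 0.5 Gy (0.06, and 0.04 after repeated quantile normalization). Casp9 turned to 0.13 at 0.5 Gy and 0.04 at 1.0 Gy with probe sets of one transcript target, to 0.06 at 1.0 Gy with the most variable probe set, and to -0.05 at 3.0 Gy with array weights, under which Fas at 1.0 Gy was 0.01. Leaving out 1 array gave Casp1 -0.22 to 0.07 at 0.5 Gy and -0.22 to 0.06 at 1.0 Gy, Xiap at 3.0 against 0.5 Gy -0.23 to 0.11, and Fas -0.13 to 0.04 at 1.0 Gy, -0.03 to 0.28 at 3.0 Gy and -0.01 to 0.30 for 3.0 against 1.0 Gy. Replicate numbers shared between groups were not used to pair samples in the main fit. Same-number deviations correlated at a median of 0.0666 over 24 pairs (-0.4535 to 0.4949, over 0.1 in 11). Deviations with other numbers had a median of -0.02545 over 84 pairs (-0.6254 to 0.6071, over 0.1 in 29). With ranges this wide, the correlations do not settle whether the numbers mark paired samples. With the replicate block 1208, 2032 and 6341 genes were called at 0.5, 1.0 and 3.0 Gy, and Casp6 and Birc2 at 3.0 against 1.0 Gy gained a call (adjusted p = 0.0301 and 0.0135). Xiap had no value with the mean over probe sets and Fas none with the 75th percentile filter, since neither passed the filter there.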
